A study of Mus musculus with 7 samples.

Results

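The 10 genes described here encode subunits of the BAF chromatin remodelling complex, which exchanges some of its subunits as neural progenitors become neurons. The genes are Actl6a, Actl6b, Phf10, Dpf1, Dpf3, Ss18, Ss18l1, Smarca2, Smarca4 and Smarcc1. They were chosen by name, as 10 of the 36666 rows of a gene table, together with the 155 of 86425 rows of an exon table that carry their symbols. Exon rows were present for 8 of them and for neither Actl6a nor Dpf3. The study sequenced mRNA from the cerebral cortex of C57BL/6 mice, in 3 young adult samples and in 4 samples of embryonic day 17. No genotype or treatment is named in the labels, so age is the labelled difference. Whether a sample came from a single animal or from a pool is not stated, and p-values therefore measure the spread between these samples, which may be technical.

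BAF is the mammalian SWI/SNF complex. Its ATPase, Smarca4 (BRG1) or Smarca2 (BRM), uses ATP to move or evict nucleosomes, and the other subunits steer the ATPase to its sites. In mice, dividing neural progenitors carry a form named npBAF, with the actin-related Actl6a (BAF53a), the PHD finger protein Phf10 (BAF45a) and Ss18. After the last division neurons carry nBAF instead, in which Actl6b (BAF53b), Dpf1 (BAF45b) or Dpf3 (BAF45c) and Ss18l1 (CREST) take those places. In mouse neurons, miR-9-3p, also written miR-9*, and miR-124 are known to repress Actl6a, and their genes are in turn under the repressor REST.

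The sequences below carry that known step. The mature miR-9-3p, which is made from 3 loci on chromosomes 3, 7 and 13, is shown from RefSeq (GRCm38.p6) with its seed, bases 2 to 8, in capitals. Under it stands the stretch of the Actl6a 3′ untranslated region (GENCODE M21) around the only match to that seed, with the matching AGCTTTA in capitals.
mmu-miR-9-3p: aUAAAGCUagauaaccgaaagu
Actl6a site: tcaacgtctgtAGCTTTAgtacactcagg
The match lies at chr3:32726640-32726646 (GRCm38, plus strand), at bases 38 to 44 of a 371-base 3′ untranslated region. Only the sense strand was searched. Of 15654 mouse 3′ untranslated regions of at least that length, 2.82% held AGCTTTA in their first 371 bases. Smarca2 had 1 match in 952 bases and Smarcc1 had 2 matches in 2396 bases, where 8.10% and 20.6% of regions held a match in the same length. The other 7 members had none. A match is a description of the letters and not evidence of use.

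The promoters of Actl6b, Dpf1 and Dpf3, 3 of the 4 subunits known from the neuronal form, are shown for their repeated CCAAT boxes. Each sequence runs from 250 bases before to 50 bases after the RefSeq start of its gene (GRCm38.p6). Capitals mark CCAAT or its reverse complement ATTGG and, in Actl6b alone, GCTGTCC, the reverse complement of GGACAGC, a stretch of the element bound by REST. They lie at chr5:137553296-137553595 (plus strand), chr7:29303755-29304054 (plus strand) and chr12:83487687-83487986 (minus strand).
Actl6b: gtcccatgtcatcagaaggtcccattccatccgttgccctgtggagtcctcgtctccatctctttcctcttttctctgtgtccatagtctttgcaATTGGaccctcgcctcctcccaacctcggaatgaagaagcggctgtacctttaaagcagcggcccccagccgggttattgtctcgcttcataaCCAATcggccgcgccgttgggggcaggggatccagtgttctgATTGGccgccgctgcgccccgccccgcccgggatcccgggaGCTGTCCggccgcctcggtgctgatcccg
Dpf1: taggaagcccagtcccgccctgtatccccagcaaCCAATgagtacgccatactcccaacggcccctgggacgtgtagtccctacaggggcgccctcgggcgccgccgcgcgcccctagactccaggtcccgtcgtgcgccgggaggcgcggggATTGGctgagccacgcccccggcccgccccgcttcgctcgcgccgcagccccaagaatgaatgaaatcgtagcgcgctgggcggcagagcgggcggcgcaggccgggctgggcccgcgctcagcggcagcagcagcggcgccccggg
Dpf3: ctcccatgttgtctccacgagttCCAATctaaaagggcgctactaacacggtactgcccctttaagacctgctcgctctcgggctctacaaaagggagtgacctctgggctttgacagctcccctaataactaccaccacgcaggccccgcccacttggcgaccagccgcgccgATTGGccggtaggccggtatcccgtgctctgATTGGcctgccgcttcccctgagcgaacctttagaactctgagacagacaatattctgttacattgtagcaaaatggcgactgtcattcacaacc
Searched on either strand, CCAAT was found 3 times in Actl6b, 2 times in Dpf1 and 3 times in Dpf3. It was found in none of the other 6 member promoters searched, among them that of neuronal Ss18l1, and Ss18 was not searched. Of 27025 mouse promoters of the same length, 37.9% held at least 1 CCAAT, 12.2% at least 2 and 3.56% at least 3. GGACAGC occurred in 6.59% of them. CCAAT and GGACAGC share no overlapping match in these windows.

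The samples held 22734208 to 23606525 reads in genes in adult cortex and 18444272 to 22575949 in embryonic cortex. These counts were recovered from the deposited gene values, and levels are given as reads per 1000000 reads in genes (CPM). Differences are adult minus embryonic means of the deposited, variance-stabilized values, where 1 unit approaches a doubling for abundant genes and understates the change of scarce ones. A gene was called at an adjusted p under 0.05 in limma over 22828 genes. Markers of the cell classes moved with age. Of 8 markers of dividing progenitors 7 were lower in adult cortex, with a summed level of 104 to 143 CPM in adult and 816 to 1076 CPM in embryonic samples. Neuronal markers summed to 9200.2 to 10199 CPM in adult and 3269 to 3755 CPM in embryonic samples, with 5 of 7 higher in adult cortex and Tubb3 and Stmn2 lower. All 6 astrocyte markers (3965 to 4823 against 162 to 167 CPM), all 6 oligodendrocyte markers (4021 to 7235 against 59.1 to 65.5 CPM) and all 6 microglial markers (232 to 249 against 22.2 to 26.3 CPM) were higher in adult than in embryonic samples. So were all 6 choroid plexus markers (590 to 726 against 1.14 to 2.35 CPM) and 4 of 6 endothelial markers (205 to 211 against 90.2 to 101 CPM). Of these markers, Gjb6, Mobp and Ttr had no reads in at least 1 sample. The part of these cell classes in the values below was not tested, and in whole cortex fewer cells of a type and less mRNA per cell cannot be told apart.

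Of the 10 members, 8 were lower in adult than in embryonic cortex and none was higher, where 33.9% of all genes tested were called lower, 35.8% higher and 69.7% either way. The fall included all 4 subunits of the neuronal form, so these samples do not show the neuron-specific genes rising as the progenitor genes fall. Their median difference was -1.08, against 0.03 over all genes. No member was higher at an unadjusted p under 0.05 either, nor in limma voom on the recovered counts. The 3 adult values lay below the 4 embryonic values in 9 members, as in 33.2% of all genes. Only Smarca2 overlapped.

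**Figure D1:**
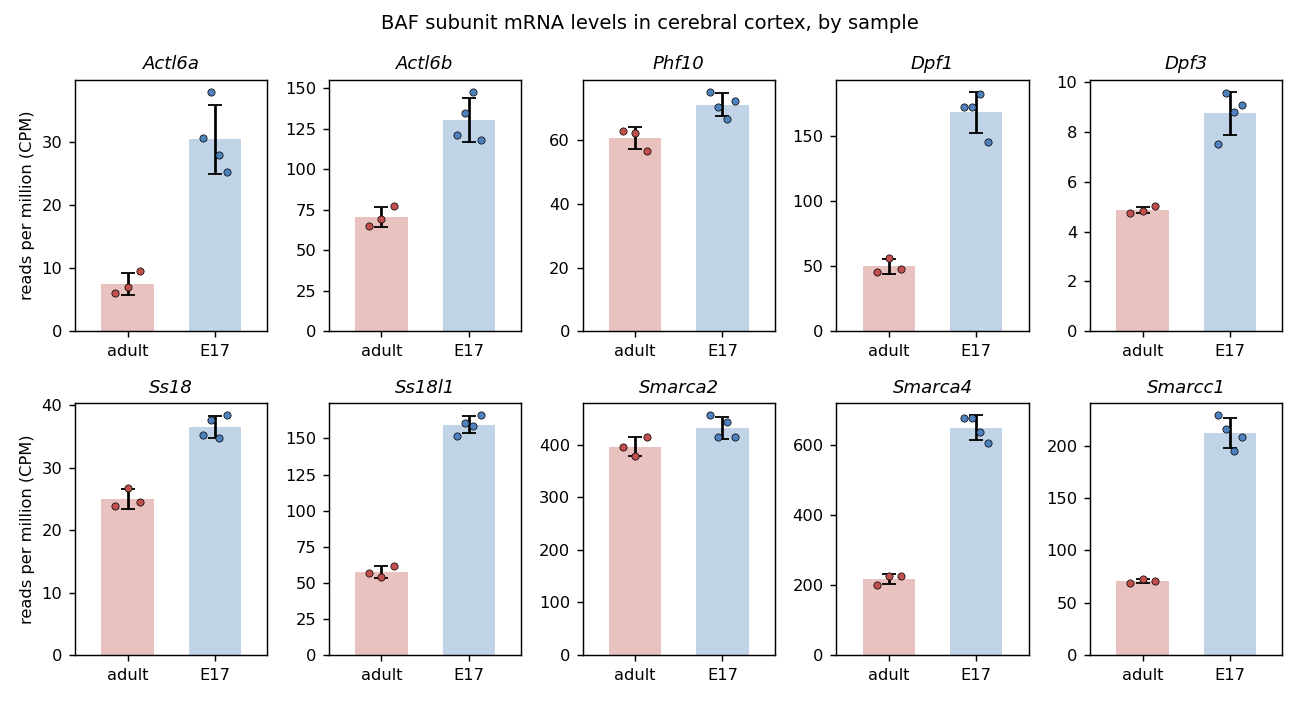
Level of each of the 10 subunits, in reads per 1000000 reads in genes (CPM), in 3 adult and 4 embryonic day 17 (E17) samples. Points are samples, bars the mean and error bars the SD. In every gene except Smarca2 all adult points lie below all embryonic points, with Actl6a at 7.52 against 30.4 CPM on average.

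Actl6a, the actin-related subunit of progenitor BAF that also serves the INO80 and TIP60 complexes, showed the largest difference of the 10. It stood at 6.11, 6.95 and 9.50 CPM in adult replicates 1 to 3, against 30.6, 38.0, 27.9 and 25.2 CPM in embryonic replicates 1 to 4. All adult samples were low and the groups did not overlap. The adult mean was 24.7% of the embryonic mean, a difference of -1.84 (SE 0.15, limma adjusted p = 9.73e-08). A mitochondrial ribosomal protein gene, Mrpl47, overlaps the last 1577 bases of Actl6a on the opposite strand. Mrpl47, picked for this overlap after values were seen, averaged 8.94 ± 1.66 CPM in adult (SD, n = 3) and 10.8 ± 1.36 CPM in embryonic cortex (SD, n = 4), and its difference of -0.18 was not called (limma adjusted p = 0.247). The sources used here do not say whether strand was used in counting, and reads of genes on opposite strands of a shared stretch cannot be told apart.

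Actl6b, the neuronal counterpart needed for dendrite growth and memory in mice, was also lower in adult cortex. Its levels were 65.0, 69.2 and 77.5 CPM in adult samples and 121, 135, 148 and 118 CPM in embryonic samples. Even the highest adult sample lay well under the lowest embryonic sample. The adult mean was 54.2% of the embryonic mean (difference -0.79, SE 0.10, limma adjusted p = 4.82e-06). Actl6a fell further than Actl6b, and their ratio therefore moved towards the neuronal subunit. Per kilobase of the longest coding transcript, Actl6b exceeded Actl6a 13.4, 12.6 and 10.3 times in adult samples and 4.99, 4.49, 6.69 and 5.89 times in embryonic samples. The ratio was above 1 in every sample, and the groups did not overlap.

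The PHD finger position is filled by Phf10 or by a protein of the Dpf family, which read modified histone tails. Phf10, which is also a subunit of the related PBAF complex, was at 62.9, 62.4 and 56.7 CPM in adult samples and at 75.3, 70.5, 66.8 and 72.3 CPM in embryonic samples. The adult values were all the lower ones, by a small margin. The difference of -0.14 (SE 0.08, 95% interval -0.31 to 0.02) was not called in limma (adjusted p = 0.112). It was called with samples centred on their medians (-0.33, limma adjusted p = 0.00154), a scaling that moved the median of all genes by -0.18, and in voom on library totals (-0.23, adjusted p = 0.0164). An uncharacterized protein-coding gene, 1600012H06Rik, covers 14562 bases of the Phf10 locus on the opposite strand. Picked for this overlap after values were seen, it averaged 14.5 ± 1.07 CPM in adult (SD, n = 3) and 19.9 ± 0.375 CPM in embryonic cortex (SD, n = 4).

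Dpf1 had the second largest difference of the members, although it belongs to the neuronal form. Adult samples held 45.2, 55.9 and 48.0 CPM and embryonic samples 172, 172, 182 and 145 CPM. The groups stood far apart, and the adult mean was 29.7% of the embryonic mean (difference -1.65, SE 0.10, limma adjusted p = 3.21e-09). An antisense gene, Gm44632, overlaps 1474 bases of the Dpf1 locus. Dpf3, whose protein binds acetylated and methylated histones, was the least abundant member, with 4.76, 4.83 and 5.01 CPM in adult and 7.54, 9.57, 8.80 and 9.10 CPM in embryonic samples. These levels rest on 109 to 114 reads per adult sample and 139 to 216 reads per embryonic sample. Dpf3 differed by -0.69 (SE 0.12, limma adjusted p = 9.92e-05), without overlap between the groups. Because Phf10 differed less than either, the ratio of Dpf1 to Phf10 per kilobase was 0.517, 0.644 and 0.610 in adult samples against 1.64, 1.76, 1.96 and 1.44 in embryonic samples. On these reads Dpf1 exceeded Phf10 in each embryonic sample and in no adult sample. The crossing was not seen with reads summed over listed exons, described below. These sums are not parts of a whole, and for Dpf1 they averaged 63.2 CPM in adult cortex, above its 49.7 CPM from all reads. On them the ratio was 1.22, 1.12 and 1.31 in adult samples and 2.22, 2.43, 2.71 and 1.98 in embryonic samples. It was thus above 1 in every sample, and still lower in adult cortex without overlap. Dpf3 to Phf10 ran from 0.0401 to 0.0469 in adult and from 0.0531 to 0.0720 in embryonic samples.

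Ss18, a subunit of progenitor BAF that is fused to SSX genes in human synovial sarcoma, was at 23.8, 26.8 and 24.5 CPM in adult samples and 35.3, 37.6, 34.8 and 38.4 CPM in embryonic samples. The groups did not overlap, and Ss18 had the smallest difference among the 8 called members (-0.45, SE 0.08, limma adjusted p = 0.00027). Ss18l1, the calcium-responsive transactivator CREST of neurons, was at 56.8, 53.8 and 61.6 CPM in adult and 152, 161, 159 and 166 CPM in embryonic samples. The adult mean of the neuronal gene was 35.9% of the embryonic mean, with a difference of -1.38 (SE 0.07, limma adjusted p = 8.85e-10). Ss18l1 exceeded Ss18 per kilobase in all samples, by 2.28, 1.92 and 2.41 times in adult samples and 4.11, 4.11, 4.37 and 4.14 times in embryonic samples. In this pair the ratio moved away from the neuronal subunit, and on reads in listed exons it was 2.33 to 4.10 in adult and 4.88 to 7.80 in embryonic samples. The listed-exon ratio is coarse, as most reads of both sums come from a last exon whose whole number was 1 or 2 in each sample.

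The ATPases separated clearly. Smarca4 was at 199.5, 225 and 225 CPM in adult samples and 677, 678, 636 and 606 CPM in embryonic samples. All adult samples were low, and the adult mean was 33.3% of the embryonic mean (difference -1.50, SE 0.08, limma adjusted p = 6.88e-10). Smarca2 was at 396, 379 and 415 CPM in adult samples and 456, 414, 443 and 415 CPM in embryonic samples. The groups met at their edges, and the difference of -0.04 (SE 0.07, 95% interval -0.19 to 0.12, limma adjusted p = 0.664) was not called. With samples centred on their medians it was -0.22 and called (limma adjusted p = 0.0163). Antisense genes 4931403E22Rik and Gm20616 overlap 9522 and 2598 bases of the Smarca2 locus. Smarca2 mRNA exceeded Smarca4 mRNA per kilobase in every adult sample, by 2.14, 1.82 and 1.98 times, and in no embryonic sample, where the ratios were 0.726, 0.657, 0.751 and 0.737. With the union of coding exons as length the ratios were 1.37 to 1.61 in adult and 0.496 to 0.567 in embryonic samples, on the same sides of 1.

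Smarcc1 (BAF155), a scaffold subunit that holds the complex together, was at 68.3, 72.3 and 71.1 CPM in adult samples and 229, 216, 195 and 208 CPM in embryonic samples. The adult samples were tightly grouped at 33.3% of the embryonic mean (difference -1.49, SE 0.08, limma adjusted p = 5.32e-10). The opposite-strand genes Dhx30 and Gm23377 overlap 123 and up to 138 bases of the Smarcc1 locus. Its paralog Smarcc2 (BAF170), which was not among the 10 members, differed by less (-0.73, SE 0.08, limma adjusted p = 1.29e-06). Smarcc2 to Smarcc1 per kilobase was 6.95, 7.15 and 7.04 in adult samples and 4.04, 4.25, 4.51 and 3.81 in embryonic samples. The 6 ratios are descriptions, and no test was made of them.

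**Figure D2:**
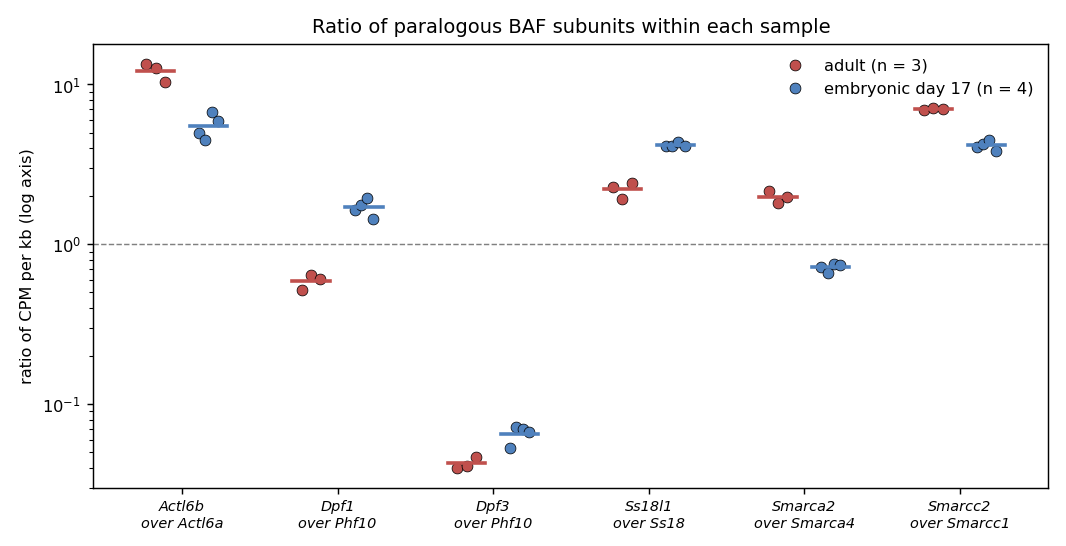
Ratio of the levels of paralogous subunits in each sample, as CPM per kilobase of the longest coding transcript, on a log axis. Points are samples, horizontal bars group means, and the dashed line marks equal levels. Smarca2 over Smarca4 and Dpf1 over Phf10 lie on opposite sides of that line in adult and embryonic samples; with reads in listed exons alone this held for Smarca2 over Smarca4, while Dpf1 over Phf10 was above the line in all samples.

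Ordered by level per kilobase in adult cortex, Smarca2 came first (67.0 ± 3.05 CPM per kilobase, SD, n = 3), followed by Actl6b (44.3 ± 4.02), Phf10 (36.5 ± 2.07), Smarca4 (34.0 ± 2.31) and Dpf1 (21.5 ± 2.40). Ss18l1 (13.2 ± 0.899), Smarcc1 (12.2 ± 0.350), Ss18 (6.03 ± 0.379), Actl6a (3.74 ± 0.879) and Dpf3 (1.55 ± 0.0425) followed. Phf10 and Smarca4 overlapped in adult samples, as did Ss18l1 and Smarcc1, and the place of Phf10 before Dpf1 did not hold on reads in listed exons. In embryonic cortex Smarca4 led (102 ± 5.43 CPM per kilobase, SD, n = 4), before Actl6b (81.8 ± 8.66), Smarca2 (73.0 ± 3.56) and Dpf1 (72.6 ± 6.88), and the last 3 of these overlapped. Phf10 (42.8 ± 2.12) came next, then Ss18l1 (36.8 ± 1.38) and Smarcc1 (36.8 ± 2.45), which overlapped, Actl6a (15.1 ± 2.74), Ss18 (8.80 ± 0.416) and Dpf3 (2.79 ± 0.277). Among the 10 members, the lead thus belonged to a different ATPase gene at each age. Smarcc2, which is not a member, stood above both leads, at 86.2 ± 3.64 CPM per kilobase in adult and 152 ± 10.3 in embryonic cortex.

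The rest of the SWI/SNF family was read from a list of 21 other subunits. Of these 17 were lower and 1 was higher in adult cortex, with a median difference of -0.89. Of all genes tested, 33.9% were called lower and 35.8% higher. The largest falls were in Smarce1 (BAF57, a DNA-binding subunit; 48.7 ± 5.94 CPM in adult and 208 ± 9.98 CPM in embryonic cortex, a difference of -2), Bcl11a (-1.97), a zinc finger subunit of cortical neurons, and Bcl7c (-1.72). Bcl7b was the gene that rose, with 35.5 ± 1.36 CPM in adult and 20 ± 1.87 CPM in embryonic cortex (SD, n = 3 and 4; difference 0.89, limma adjusted p = 1.28e-06). Dpf2 (BAF45d), the broadly expressed relative of Dpf1 and Dpf3, fell by 0.53. Smarcd1 (-0.17), Smarcd2 (0.13) and Bicral (0.08) were not called. The members thus lay within the range of the whole family, between Smarce1 and Bcl7b.

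**Figure D3:**
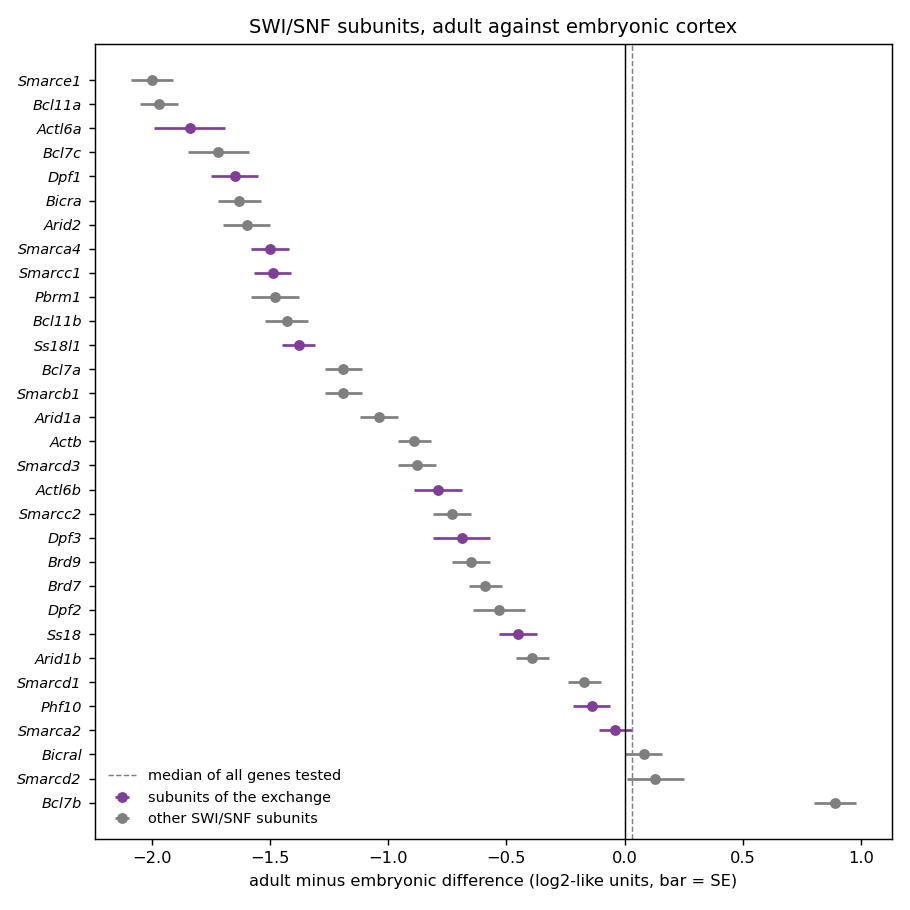
Difference of each of 31 SWI/SNF subunits, adult minus embryonic, in log2-like units, with bars for the SE. The 10 members (purple) are spread among the 21 others (grey), and 28 of 31 estimates lie below 0. The dashed line is the median of all genes tested, 0.03.

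Other remodelling complexes were mostly lower as well, where 33.9% of all genes tested were called lower and 35.8% higher. Of 26 INO80 and TIP60 subunits 19 were lower and 5 higher, with Mbtd1 (-2.12), the ATPase Ruvbl2 (-1.50) and Epc1 (-1.41) falling most and Uchl5 (1.06), a deubiquitinase, Actr8 (0.41) and Ino80c (0.28) rising most. The number higher was 2 with samples centred on their medians or in voom on library totals. It was 3 with no filter on low values, with no mean-variance trend, without adult replicate 3 or without embryonic replicate 1. All of 11 ISWI genes except Chrac1 (0.06) were lower, led by Baz1a (-1.89), Cecr2 (-1.69) and Baz2b (-1.25). None was higher, at an unadjusted p under 0.05 or in voom. In the CHD and NuRD families 15 of 20 genes were lower, led by the deacetylase Hdac2 (-1.86), Mta2 (-1.59) and Chd7 (-1.41). Among the 4 that were higher, the methyl-CpG binding Mbd2 averaged 41.6 ± 1.1 CPM in adult and 18.8 ± 0.501 CPM in embryonic cortex (SD, n = 3 and 4), with Mta3 (1.06) and Chd5 (0.64), a remodeller of neurons, beside it.

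Genes of the REST corepressor axis, upstream of the miRNA step described above, were mostly lower as well. Of 14 genes 11 were down and 2 up, where 33.9% of all genes tested were called lower. The number lower was 9 with no filter on low values or with no mean-variance trend. It was also 9 without adult replicate 1 or without embryonic replicate 1 or 2. Rcor2, a REST corepressor of progenitors, was at 11.2 ± 2.37 CPM in adult and 110 ± 11.2 CPM in embryonic cortex (SD, n = 3 and 4), a difference of -3.14 (SE 0.13, limma adjusted p = 5.44e-11). The histone methyltransferase Ehmt1 (-2.04) and the demethylase Kdm1a (-1.85) followed. The small phosphatases Ctdspl (1.04) and Ctdsp1 (0.57), which act with REST in other tissues, were the genes that rose. Mature miRNAs are not measured by these mRNA libraries. The row of the Mir9-1 locus, chosen after values were seen, held 8, 2 and 7 reads in adult samples and 18, 30, 26 and 22 reads in embryonic samples (difference -1.59, limma adjusted p = 0.000267). C130071C03Rik, a long noncoding RNA across the Mir9-2 locus that was also chosen after values were seen, was at 37.8 ± 4.55 CPM in adult and 238 ± 14.1 CPM in embryonic cortex (SD, n = 3 and 4), a difference of -2.55. A row of a miR-124 locus, Mir124a-3, also chosen after values were seen, ran the other way, with 9, 3 and 4 reads in adult samples and 1, 1, 0 and 1 reads in embryonic samples (difference 1.49, limma adjusted p = 0.0172). The rows Mir9-2 and Mir124a-1 held no reads in any sample.

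The genes most like Actl6a over the 7 samples were sought by the root mean square difference after each gene was centred on its own mean. They were Ager (0.0969), Heatr7b1 (0.126) and Gm14639 (0.133). For Actl6b they were Gm10076 (0.0411), the WD repeat gene Wdr55 (0.0444) and the chaperonin subunit Cct7 (0.0456). By this measure, with 7 samples in 2 groups, genes of a like difference rank as most alike.

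Exon rows gave a second readout. Each value stands for the gene's reads divided by the exon's reads, rounded by the authors to a whole number, so that 100 divided by it is the exon's share in percent. A small whole number makes for a coarse share. Of 155 member exons 7 were called, 5 with a lower and 2 with a higher share in adult cortex, which is 4.52% where 1.98% of all exon rows were called, 0.951% with a lower and 1.03% with a higher share. Dpf1, Actl6b, Ss18 and Ss18l1 had no called exon.

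Phf10 had 4 of the 7, all towards its 3′ end and all lower in adult cortex. At its eleventh and last listed exon (mm9 chromosome 17, start 15083204) the share was 1.72%, 2.08% and 2.63% in adult samples and 5%, 6.67%, 5.88% and 5.56% in embryonic samples (limma adjusted p = 0.00465). The tenth (start 15083660) averaged 1.05% in adult and 3.56% in embryonic samples (limma adjusted p = 0.0175). In these exons, which were named after their values were seen, no adult share reached the lowest embryonic share. By the naming rule, the seventh (start 15091020; 8.19% against 12.9%, limma adjusted p = 0.0259) and the eighth (start 15089625; 8.84% against 12.5%, limma adjusted p = 0.0140) were also lower in adult than in embryonic cortex. The call of the eleventh exon held whichever sample was left out. The others did not pass without certain samples, at adjusted p up to 0.0884 for the seventh (without any of the 4 embryonic samples), 0.0579 for the eighth (without embryonic replicate 1, 2 or 4) and 0.0807 for the tenth (without adult replicate 1 or 2 or embryonic replicate 3 or 4), in limma. In limma's diffSplice, where an exon is set against the rest of its gene, the tenth (adjusted p = 0.000821) and the eleventh (0.000579) were called, and the seventh (0.968) and the eighth (0.812) were not. As diffSplice pools the variance over all exons of a gene, its p does not measure the spread of a single exon. From exon 6 on, all 6 exons had lower shares in adult than in embryonic samples with no overlap, although exons 6 and 9 were not called. Exons 1 to 5 had lower adult mean shares as well, with overlap and without a call, such as 6.85% against 8.29% at exon 2. Summed over the 11 listed exons, Phf10 shares came to 58.1%, 66.2% and 61.3% in adult samples and 93.5%, 90.9%, 89.7% and 89.6% in embryonic samples. Such sums are not parts of a whole, as those of Smarca4 averaged 131% in adult and in embryonic samples. They therefore do not fix how many of the Phf10 reads lay outside its listed exons at either age. The estimated reads summed over those exons were 37.5 ± 3.41 CPM in adult and 64.8 ± 4.27 CPM in embryonic cortex. Their log2 ratio was -0.79, where all reads of the gene gave -0.23. In Smarca4, by contrast, the listed exons gave -1.59 and all reads -1.58, and in Smarcc1 both gave -1.59. The part of the opposite-strand gene 1600012H06Rik in this was not tested.

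**Figure D4:**
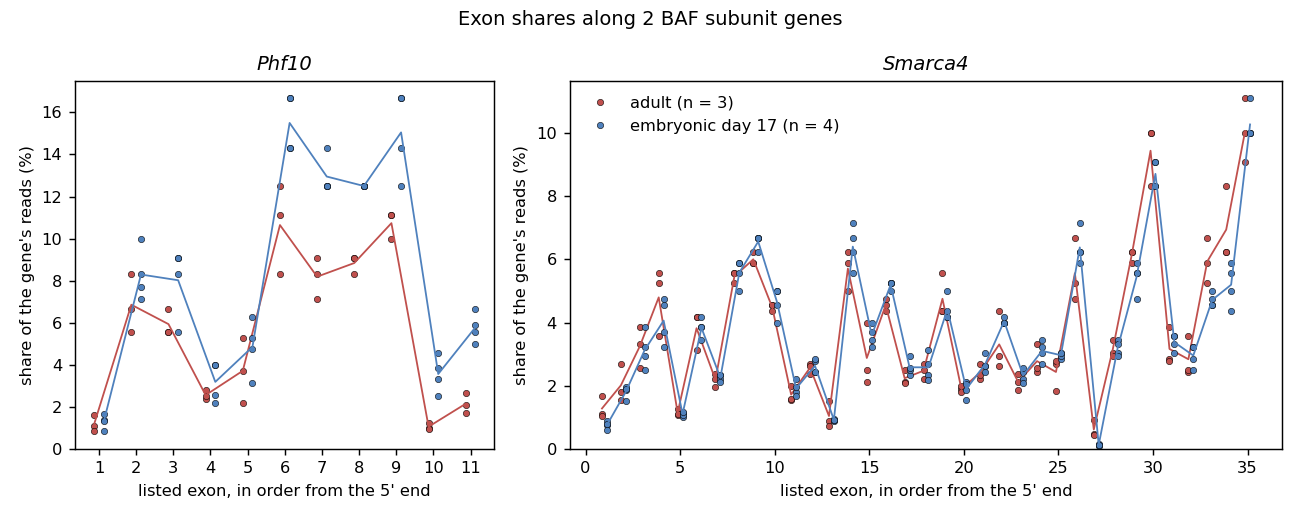
Share of the gene's reads, in percent, of each listed exon of Phf10 and of Smarca4, in order from the 5′ end, in 3 adult and 4 embryonic day 17 samples. Points are samples and lines join the group means. In Phf10 the adult shares lie below the embryonic shares from exon 6 on. In exons 1 to 5 of Phf10 the adult means are lower too, with overlap. The lines of Smarca4 stay close, with exon 27 near 0 in both groups.

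Smarca4 had a called exon that took a small share of its reads. At its exon 27 of 35 listed (mm9 chromosome 9, start 21482397) the share was 0.459%, 0.926% and 0.448% in adult samples and 0.152%, 0.124%, 0.0887% and 0.130% in embryonic samples. The adult shares were all higher, from 21, 49.1 and 23 estimated reads against 19, 19, 12 and 17 in embryonic samples (limma adjusted p = 0.0411). The call was lost when any single sample was left out (adjusted p 0.0516 to 0.118), and limma's diffSplice gave an adjusted p of 1.43e-06. In diffSplice 11 member exons were called, where 4.86% of all exons were. The last exons of Smarca2 (start 26851825, chromosome 19) and Smarcc1 (start 110140323, chromosome 9) were each called on a single step of the whole number, and neither was called in limma's diffSplice (adjusted p = 0.341 and 0.226). The Smarca2 exon had a share of 20% in each adult and 25% in each embryonic sample, and the Smarcc1 exon 33.3% in each adult and 25% in each embryonic sample (limma adjusted p = 0.00252 for Smarca2 and 0.000397 for Smarcc1). Rounding to whole numbers allows shares of 18.2% to 22.2% in adult and 22.2% to 28.6% in embryonic samples for the Smarca2 exon. For the Smarcc1 exon it allows 28.6% to 40% in adult and 22.2% to 28.6% in embryonic samples. The size of these differences is thus not fixed by the data. Whole numbers of these exons were the same within each group, so their p-values do not measure the spread between samples.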

How the data were processed

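mRNA-seq of mouse cortex was analysed in 3 adult and 4 embryonic day 17 samples, with groups taken from the labels. Per the labels, RNA was extracted with trizol and libraries made with an Illumina mRNA kit. The submitters' processing notes name HTSeq 0.5.3p3, TopHat 1.0.13, SAMtools 0.1.7a, CASAVA 1.7.1, Bowtie 0.12.7.0 and the mm9 build, with no role. The authors deposited gene values on a variance-stabilized, log2-like scale, and an exon score, described per the file headers as 1 over a ratio and also variance-stabilized. All 14 columns were used.

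The members and lists were chosen with earlier results of these data known. Groups were compared, adult minus embryonic, in limma 3.58.1 (R 4.3.3, lmFit and eBayes with trend, two-sided, Benjamini-Hochberg, 0.05) on the deposited values of all 7 samples. Rows without reads, which sit at a column's minimum, in more than 3 samples were left out. Exon rows were tested in the same way. The gene values were turned back into read counts, within 0.1 of a whole number in 100% of values; up to 400 reads this holds by construction. The recovery and the fits were tested on simulated data. CPM and shares only describe levels. Reads are not deduplicated, and depth was 18444272 to 23606525 reads in genes. Named genes were all members, up to 3 called, non-overlapping genes in each direction per remodeller list, the 3 nearest to Actl6a and Actl6b, and up to 2 called exons in each direction per member. Other genes are marked where named. Lengths, overlaps and 3′ untranslated regions came from GENCODE M21 (GRCm38), promoters and miRNAs from RefSeq. Alternatives were median centring, no filter, no trend, voom with library totals or median-of-ratios factors, a replicate block, each sample left out, diffSplice, at least 10 exon reads and, chosen after seeing the data, exon sums, also for ratios, and union lengths.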

Additional observations from a re-analysis of the deposited data

Results flagged for a closer look

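In the seventh listed exon of Phf10 (mm9 chromosome 17, start 15091020), embryonic replicate 2 stood apart from the other embryonic samples, with a share of 14.3% against 12.5%, 12.5% and 12.5%. Its gap to the nearest sample was the whole range of the group (gap over range 1), above Dixon's 95% critical value for 4 samples. The whole numbers behind these shares were 8, 7, 8 and 8, so the gap is the smallest step the scale can show. It was the 1 flag among 17 embryonic groups of values examined. A chance rate of about 1 in 20 holds for continuous values and not for the exon groups. With whole numbers, any single sample apart from tied others gives a gap over range of 1.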

How the results depend on the processing

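All 8 called members kept their direction and their call under every gene-level alternative run. Phf10 (-0.33) and Smarca2 (-0.22) were called lower with samples centred on their medians, and Phf10 (-0.23) in voom on library totals. Leaving out each sample gave 8 members lower each time and 1 to 2 other SWI/SNF subunits higher (2 without adult replicate 2), and reads summed over listed exons gave log2 ratios of -0.79 for Phf10, -0.45 for Ss18 and -1.62 for Ss18l1, against -0.23, -0.55 and -1.48 for all reads of the gene. Of the mean ratios in adult and in embryonic samples, reads in listed exons gave 1.22 and 2.33 for Dpf1 to Phf10 (0.590 and 1.7 on all reads) and 3.05 and 6.92 for Ss18l1 to Ss18 (2.20 and 4.18). The listed-exon values of Ss18 and Ss18l1 rest mostly on a last exon with a whole number of 1 or 2 in each sample. With union lengths Dpf3 to Phf10 was 0.0317 and 0.0486, Smarca2 to Smarca4 1.5 and 0.542, Smarcc2 to Smarcc1 7.47 in adult and Ss18l1 to Ss18 4.56 in embryonic samples. Exon calls were less stable. Calls over all exons were 1711, against 4185 in diffSplice, 293 with a replicate block and 1077 to 2155 with a sample left out. Member exons called were 7, against 11 in diffSplice, 1 with the block and 3 to 8 with a sample left out (4 without embryonic replicates 1, 2 or 3 and 3 without embryonic replicate 4). In diffSplice the Phf10 exons at 15091020 (-0.17) and 15089625 (-0.59) turned direction relative to the other exons of the gene, on the exon score where higher means a smaller share. The cause was not tested. The replicate numbers were not taken as pairs, since deviations of same-numbered samples correlated at 0.00879, 0.0567 and 0.0405, although each adult sample correlated best with its own number. Under the block the same 8 member genes were called, but of the 7 member exons only that of Smarcc1 was, with adjusted p of 0.0935 to 0.181 for the 4 of Phf10, 0.0693 for Smarca2 and 0.249 for Smarca4. The Smarcc1 exon had a single whole number in each group, so its call does not measure the spread between samples. Few reads limit the Mir9-1 and Mir124a-3 rows, the tenth and eleventh exons of Phf10 and the Smarca4 exon, among others.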

Other observations

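Set against the other exons of its gene in diffSplice, the second listed exon of Actl6b (mm9 chromosome 5, start 137995292) had a share of 4.67 ± 1.09% in adult (SD, n = 3) and 2.79 ± 0.186% in embryonic cortex (SD, n = 4). The groups did not overlap, with an adjusted p of 2.92e-08 in limma's diffSplice and of 0.115 in limma row by row. Only the row-by-row p rests on the spread of this exon alone before moderation, since diffSplice pools the variance over the gene. The first listed exons of Ss18l1 (5.35 ± 0.856% in adult and 3.54 ± 0.362% in embryonic cortex; start 179777188, chromosome 2) and of Smarca4 (1.28 ± 0.339% in adult and 0.750 ± 0.117% in embryonic cortex; start 21420613, chromosome 9) were also higher in adult cortex in diffSplice alone (adjusted p = 0.0287 and 0.0346). Lower in adult cortex in diffSplice alone were the sixteenth listed exon of Smarcc1 (1.23 ± 0.553% in adult and 2.19 ± 0.284% in embryonic cortex, adjusted p = 0.0113) and exons 32 and 33 of Smarca2 (2.94 ± 0.358% and 4.37 ± 0.381% in adult, 3.59 ± 0.291% and 5.34 ± 0.267% in embryonic cortex, adjusted p = 0.0291 and 0.0287). Exons 4 (3.22 ± 0.729% in adult and 2.28 ± 0.286% in embryonic cortex) and 26 (3.75 ± 0.0822% and 2.79 ± 0.162%) of Smarca2 had larger shares in adult samples (diffSplice adjusted p = 0.0257 and 0.0415). The groups overlapped at exons 4 and 32 of Smarca2, and at none of the other exons named in this paragraph. All exons of the paragraph were chosen after their values were seen.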
